A study of Homo sapiens with 8 samples.

Results

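The effect of miR-375 overexpression that LNCaP and PC3 cells shared is described here. It was estimated from all 8 libraries of the series, 4 with miR-375 overexpressed and 4 controls, with the cell line as a blocking term. It was read over 9976 of the 21066 genes tested, namely those whose mean level was 5 CPM or more in both lines, taking in each line the higher of its control mean and its miR-375 mean. CPM is a gene's count relative to the library's TMM-scaled total. The choice used levels and not differences: 9637 of the 9976 genes code for proteins, 9435 reached 5 CPM in all 4 group means, 345 did so in at least 1 line only through the miR-375 mean and 209 only through the control mean. At the edge of the choice stood AP001505.1 just inside, at 5.01 CPM in the line where it was lower, and SSR4P1 just outside, at 4.99 CPM.

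Both are human prostate cancer lines: LNCaP, taken from a lymph node metastasis, responds to androgen, whereas PC3, taken from bone, does not. Each line had 2 control libraries (labelled NC) and 2 libraries with overexpressed miR-375 (labelled OE). All cells grew in the same medium with antibiotics, LNCaP with 10% and PC3 with 20% fetal bovine serum, so line and serum cannot be told apart in any difference between the lines. The labels give neither the means nor the duration of the overexpression, nor the nature of the control. They are also silent on whether replicate libraries stem from separate cultures. P-values within a line therefore reflect only library-to-library spread, possibly technical. Those of the shared effect also reflect how far the effects of the 2 lines differ.

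MicroRNAs guide argonaute proteins to messenger RNAs. Bases 2 to 8 of the microRNA, the seed, pair with sites that lie mostly in 3′ untranslated regions (3′ UTRs), and a paired messenger is translated less and degraded faster. miR-375 is best known from pancreatic islets and is abundant in luminal prostate cells, and MTDH, YAP1 and SEC23A are among the targets reported for it. The mature strands are printed because every seed match below is read against the 3p strand; sites of the 5p strand were not searched. They are from RefSeq (GRCh38.p14), lie at chr2:219001648-219001669 and chr2:219001682-219001704 on the minus strand, and carry the seed in capitals.
hsa-miR-375-3p: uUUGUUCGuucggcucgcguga
hsa-miR-375-5p: gCGACGAGccccucgcacaaacc
A site for the 3p strand reads GAACAAA where it matches bases 2 to 7 and is followed by A (a 7mer-A1 site), CGAACAA where it matches bases 2 to 8 (7mer-m8), and CGAACAAA where it does both (8mer).

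Library totals ran from 33973861 to 41890528 counts. The first principal component over the 9976 genes (89.2% of variance) set the lines apart, and the second (7.97%) set miR-375 apart from control libraries in both. KLK3, the prostate-specific antigen gene, stood between 1795 and 2810 CPM in the 4 LNCaP libraries and at 0 in the 4 PC3 libraries. FOSL1, a PC3 marker, stood between 293 and 726 CPM in PC3 and at 1.09 CPM or less in LNCaP. MIR375 had 0 counts in all 8 libraries, but a mature microRNA has no poly(A) tail to be selected by, so the zeros check neither the labels nor the overexpression. Summed levels of 12 fibroblast markers were 49.7 to 59.9 CPM in the LNCaP controls, 58.4 to 63.2 with miR-375, 221 to 237 in the PC3 controls and 437 to 454 with miR-375. The sums of 11 endothelial markers were 63.3 to 67.3, 76.8 to 77.7, 412 to 414 and 245 to 248 CPM in the same order. Those of 12 leukocyte markers were 1.84 to 2.06, 3.90 to 3.93, 2.52 to 2.59 and 3.52 to 4.29 CPM, with the T cell gene CD3D and the B cell gene MS4A1 at 0 everywhere.

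With miR-375, nearly all listed genes of DNA replication, mitosis and recombination repair fell in both lines, as did most of the reported targets. The replication-dependent histone genes at this level rose in both, and so did part of the antigen presentation genes and part of the interferon-stimulated genes. In the common fit 2626 genes were lower (26.3%) and 1607 higher (16.1%) with miR-375, against 14.5% and 12.3% of all tested genes (edgeR's quasi-likelihood test, Benjamini-Hochberg adjusted p under 0.05 over all tested genes). A common effect can be carried by 1 line, so a gene is said below to have fallen or risen in both lines only where the common fit and each line's own contrast passed in the same direction. In LNCaP's own contrast 35.0% of the 9976 genes were lower and 20.7% higher (18.7% and 13.9% of all tested genes), and in that of PC3 35.2% and 28.6% (20.8% and 22.2%). Agreement of all 3 held for 2087 genes that fell (20.9%) and 1153 that rose (11.6%), against 10.4% and 6.85% of all tested genes. Of the genes lower in the common fit 79.5% thus fell in both lines, while 214 passed in LNCaP alone and 323 in PC3 alone; of the genes higher in it 71.7% rose in both, 126 passed in LNCaP alone and 326 in PC3 alone. The miR-375 libraries lay beyond the control libraries of the same line, in each line, for 2086 of the 2087 falls and 1149 of the 1153 rises. The calls were made from these same libraries, so that separation was largely set by the calls and adds nothing to them. Its share over all genes is not given here.

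With TMM scaling, large changes were more often falls than rises. A change of 2-fold or more in each line was reached by 165 of the genes that fell in both lines and by 21 of those that rose, and 1.5-fold by 487 and 136. Of the 21 rises, 13 reached 5 CPM in at least 1 line only through the miR-375 mean, so their presence depends on the rise itself. The size of a shared change differed between the lines less often than over the 9976 genes. The difference between the 2 effects passed for 718 of the 2087 falls (34.4%) and 408 of the 1153 rises (35.4%). It passed for 44.1% of the 9976 genes and 26.5% of all tested genes. Asking for the same direction in both lines and a pass in the common fit selects against such differences. PC3 had the larger effect in 1077 of the falls and 715 of the rises. The log2 effects of the lines had a Pearson correlation of 0.55 and a Spearman correlation of 0.499 over the 9976 genes, which share their libraries and are not independent, and 67.4% of genes had the same sign. The balance of falls and rises depended on scaling. With library sizes from total counts the median common effect of these genes moved by 0.099 on the log2 scale, from −0.046 to 0.054, and 1730 genes were lower and 2640 higher, so that 60.4% of called genes were higher in place of 38.0%. When the 9976 genes were fitted alone, 51.4% were higher.

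**Figure D1:**
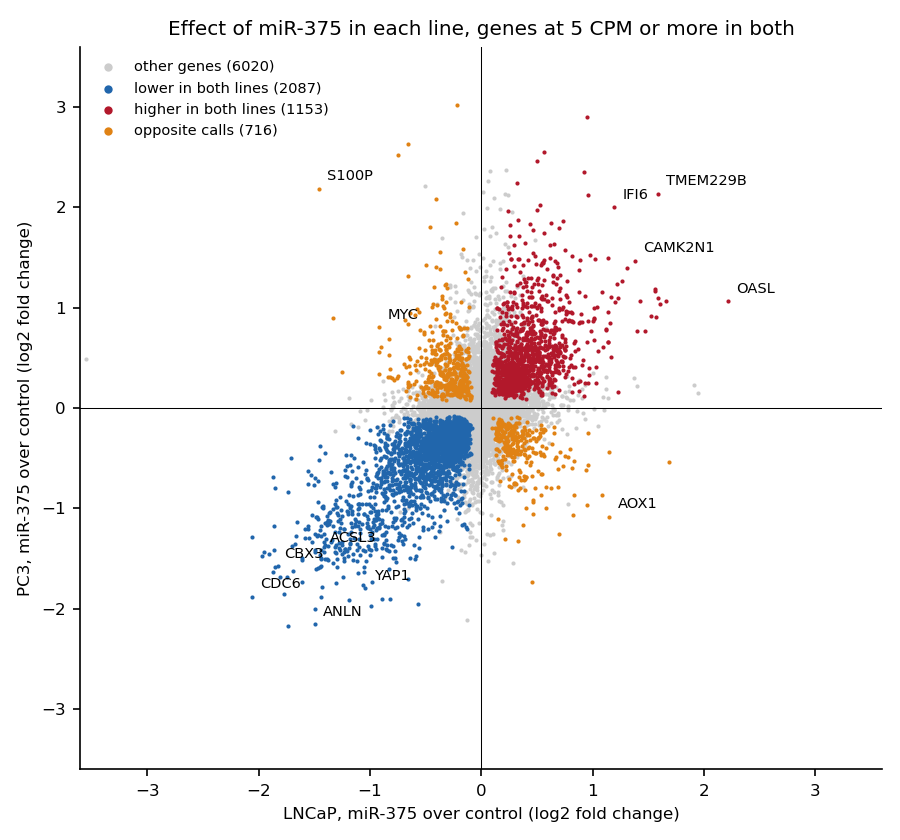
Log2 fold change of miR-375 over control in LNCaP (x axis) and in PC3 (y axis) for the 9976 genes, 1 point per gene, coloured by call; 2 genes lie outside the axes. Of the 2087 genes that fell in both lines 165 changed 2-fold or more in each line, and of the 1153 that rose 21 did. Of those 21, 13 reached 5 CPM in at least 1 line only through the miR-375 mean. The 716 genes with opposite calls fill the other quadrants.

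The 12 largest shared falls, ranked by the smaller of the 2 line effects, included those of CDC6, MCM5, POC1B, TYMS, DTL, MAT2B, EME1, CBX3, EXO1, CDCA7L and ANLN. The ranking took only genes whose miR-375 and control libraries did not overlap in either line, so that separation was set by the choice. CDC6 loads the replicative helicase onto origins, and it stood at 68.9 and 70.6 CPM in the LNCaP controls and 17.1 and 16.4 CPM with miR-375. In PC3 it stood at 49.0 and 50.4 CPM in the controls and 12.7 and 14.3 CPM with miR-375. CDC6 was thus lower in both lines, 4.16-fold in LNCaP and 3.68-fold in PC3 (common log2 change −1.97 ± 0.069 SE, edgeR adjusted p = 2.60e-07, n = 4 against 4). MCM5, a subunit of that helicase, fell from 74.9 ± 3.15 to 21.9 ± 1.11 CPM in LNCaP and from 78.5 ± 0.921 to 21.7 ± 1.66 CPM in PC3 (SD, n = 2 per group), a common change of −1.81 ± 0.061. EXO1, an exonuclease of repair and recombination, changed by −1.69 ± 0.10. TYMS, the thymidylate synthase gene, changed by −1.74 ± 0.088, with its antisense neighbour ENOSF1 overlapping it. DTL, which guides replication factors to degradation, changed by −1.75 ± 0.077.

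The other large shared falls were of genes with varied roles. CBX3 encodes heterochromatin protein HP1 gamma and stood at 638 and 609 CPM in the LNCaP controls and 176 and 171 CPM with miR-375. In PC3 it stood at 268 and 269.5 CPM in the controls and 91.0 and 88.4 CPM with miR-375. CBX3 was the most abundant of the 12 in LNCaP, and its fall was larger there (3.6-fold against 2.99-fold, adjusted p of the difference = 0.000148); exons of HNRNPA2B1 overlap it on the other strand. MAT2B, the regulatory subunit of methionine adenosyltransferase, fell from 43.3 ± 0.728 to 13.4 ± 0.378 CPM in LNCaP and from 57.3 ± 1.07 to 18.5 ± 0.653 CPM in PC3. Its 2 line effects, −1.69 ± 0.081 and −1.63 ± 0.075, differed by less than their errors (adjusted p of the difference = 0.750). POC1B, a centriole protein gene that shares exons with the readthrough gene POC1B-GALNT4, fell from 18.3 ± 1.45 to 5.48 ± 0.498 CPM in LNCaP and from 43.1 ± 1.73 to 9.56 ± 1.32 CPM in PC3. EME1, a subunit of a structure-specific endonuclease, changed by −1.68 ± 0.12 and CDCA7L, a MYC-interacting nuclear protein gene, by −1.56 ± 0.058. ANLN, the anillin gene of the cytokinetic ring, changed by −1.50 ± 0.056 in LNCaP and by −2.16 ± 0.049 in PC3, and these effects differed (adjusted p = 5.99e-09). Of the 12 genes only EME1 had group means under 5 CPM, in the miR-375 groups of both lines.

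**Figure D2:**
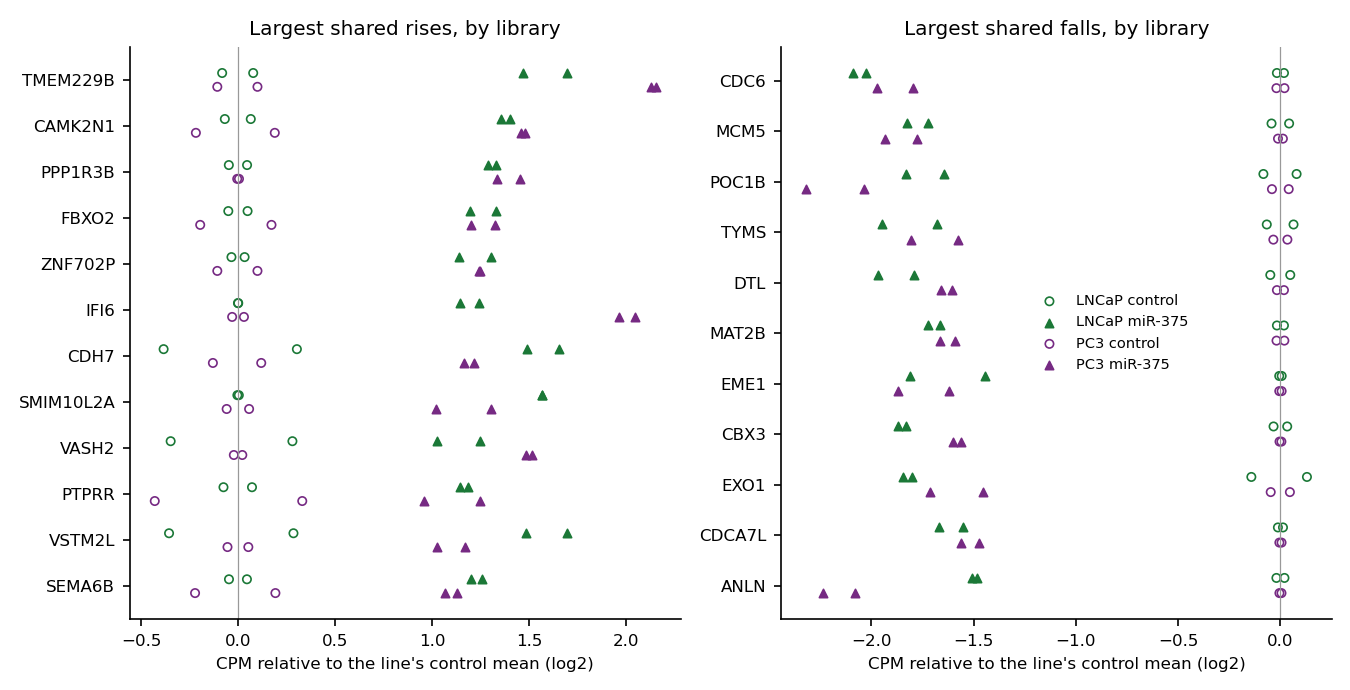
Level of each library relative to the control mean of its own line (log2 of the CPM ratio, x axis) for the 12 largest shared rises (left) and 11 of the 12 largest falls (right); open circles are controls, triangles miR-375 libraries, green LNCaP and purple PC3. The choice of genes keeps triangles and circles of a line apart; TMEM229B and IFI6 in PC3 lie furthest to the right.

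Replication of DNA and division of the cell are run by genes that are transcribed in waves, those of replication at the G1/S transition through E2F factors and those of mitosis later through the DREAM and MuvB complexes. Among genes of DNA replication and G1/S, 56 of 58 fell in both lines and none rose, against 20.9% and 11.6% of the 9976 genes. Their median common change was −1.23, against −0.046 over the 9976 genes. All 49 genes of mitosis and G2/M fell in both lines (median −1.10), as did 26 of 27 genes of homologous recombination and Fanconi repair (−1.09) and 18 of 24 genes of condensin, cohesin and chromosome structure (−0.74). In all, 149 of the 158 genes on these 4 lists fell in both lines. In bulk RNA, fewer cycling cells and less RNA per cell cannot be told apart.

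MCM3, a partner of MCM5 in the helicase, was among the largest falls of the replication list. MCM3 stood at 125 and 126 CPM in the LNCaP controls and 38.8 and 43.3 CPM with miR-375. In PC3 MCM3 stood at 149 and 149 CPM in the controls and 53.6 and 52.6 CPM with miR-375. Its fall was 3.05-fold and 2.81-fold (adjusted p of the difference = 0.261). The exceptions were CCNE1, the cyclin E1 gene, with −0.74 in LNCaP and 0.17 in PC3 (common adjusted p = 0.209), and TIPIN, a fork protection gene, at −0.17 ± 0.090 (adjusted p = 0.203). In the mitosis list CDK1, the mitotic kinase gene, stood at 447 and 419.5 CPM in the LNCaP controls and 175 and 164 CPM with miR-375. CDK1 in PC3 stood at 226 and 222 CPM in the controls and 88.3 and 89.0 CPM with miR-375. CDK1 was lower in both lines, 2.55-fold and 2.53-fold (adjusted p of the difference = 0.964). The kinesin genes KIF11 and KIF23 changed by −1.31 ± 0.055 and −1.53 ± 0.098 on the log2 scale, KIF23 by more in PC3 (−1.74) than in LNCaP (−1.30, adjusted p of the difference = 0.00182).

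Among repair genes FANCI, which is monoubiquitinated at crosslinks, fell 2.72-fold in LNCaP and 3.68-fold in PC3 (adjusted p of the difference = 0.000186). FANCL, the ligase subunit, was the exception at −0.21 ± 0.16 (adjusted p = 0.365). In the chromosome structure list the condensin genes NCAPG (−1.36 ± 0.078) and NCAPH (−1.33 ± 0.077), the cohesin acetyltransferase ESCO2 (−1.37 ± 0.10) and the sororin gene CDCA5 (−1.25 ± 0.064) fell. The 6 genes that passed in neither direction in the common fit were the cohesin subunits and regulators STAG1, STAG2, PDS5A, WAPL, NIPBL and ESCO1, with common changes between −0.14 and 0.22.

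Promoters of 2 genes are shown because the replication and mitosis lists each fell together and their promoters hold known cell cycle motifs. The promoters are RefSeq's (GRCh38.p14), the 300 bases around each gene's start, and were matched for 8027 of the 9976 genes. Searches covered both strands for E2F forms (TTTCCCGC, TTTCGCGC, TTTGCCGC and TTTGGCGC), the cell cycle homology region (CHR, TTTGAA) and the CCAAT box (CCAAT), none of which holds another. Also searched were the TEAD motif (GGAATG, in 14% of all promoters and 10.3% of those of the 9976 genes) and an ATF4 motif (TGATGCAAT, 0.264% and 0.125%), found in 3 of 14 Hippo list promoters and in none of 23 stress response promoters. Capitals mark the matches in CDC6 (chr17:40287629-40287928, plus strand), with an E2F form and 3 CCAAT boxes, and in KIF23 (chr15:69414099-69414398, plus strand), with a CCAAT box just before a CHR.
CDC6: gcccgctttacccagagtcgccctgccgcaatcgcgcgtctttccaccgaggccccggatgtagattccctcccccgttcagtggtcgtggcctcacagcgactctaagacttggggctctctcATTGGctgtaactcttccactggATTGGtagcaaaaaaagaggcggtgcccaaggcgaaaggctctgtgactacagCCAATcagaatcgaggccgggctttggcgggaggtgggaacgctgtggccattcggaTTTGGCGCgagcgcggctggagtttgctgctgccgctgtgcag
KIF23: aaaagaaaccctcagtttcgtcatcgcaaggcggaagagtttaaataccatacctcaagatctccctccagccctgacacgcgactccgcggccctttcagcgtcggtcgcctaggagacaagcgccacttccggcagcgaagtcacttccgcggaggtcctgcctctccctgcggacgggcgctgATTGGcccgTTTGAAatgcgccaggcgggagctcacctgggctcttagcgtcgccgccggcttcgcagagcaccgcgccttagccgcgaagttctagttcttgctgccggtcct
An E2F form stood in 22 of 49 matched promoters of the replication list (44.9%) and in 2 of 41 of the mitosis list (4.88%), against 3.33% of all 27305 promoters of that length and 5.83% of those of the 9976 genes. A CHR stood in 29 of 41 mitosis promoters (70.7%) and 3 of 49 replication promoters (6.12%), against 15.4% and 9.07%. The CCAAT box stood in 78.0% of mitosis promoters, against 35.7% of all and 38.0% of those of the 9976 genes. It is not particular to lists that fell. It stood in 83.3% of promoters of the unfolded protein response and cholesterol lists and in 7 of 8 histone promoters. Every other list lay at 63.6% or less. Among the 130 matched promoters of genes that fell 2-fold or more in each line, 26.9% held an E2F form and 29.2% a CHR. A match is a description of the letters and not a bound site.

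Of 43 genes listed as miR-375 targets from earlier literature, 32 were at 5 CPM or more in both lines. Of these, 19 fell in both lines and none rose in both, against 20.9% and 11.6% of the 9976 genes, and the median common change was −0.47. The largest shared falls were of CIP2A (an inhibitor of protein phosphatase 2A), MTDH, YAP1, YWHAZ, USP1 and SEC23A, each near or above 2-fold in both lines. MTDH, a metastasis-associated gene, changed by −1.49 ± 0.039 in LNCaP and −1.09 ± 0.038 in PC3. YAP1, the transcriptional effector of Hippo signalling, fell by more in PC3 (−1.53 ± 0.049) than in LNCaP (−1.04 ± 0.050), with an adjusted p of the difference of 6.78e-07. YWHAZ, a 14-3-3 protein gene, stood at 789 and 771 CPM in the LNCaP controls and 387 and 361 CPM with miR-375. In PC3 YWHAZ stood at 2006 and 1995 CPM in the controls and 744 and 751 CPM with miR-375, 2.68-fold lower. USP1, the deubiquitinase of the Fanconi pathway, stood at 92.5 and 96.0 CPM in the LNCaP controls and 40.4 and 39.7 CPM with miR-375. In PC3 USP1 stood at 97.6 and 97.1 CPM in the controls and 43.2 and 41.0 CPM with miR-375. The USP1 effects, −1.23 ± 0.056 and −1.21 ± 0.054, had the smallest difference between the lines among the 19 that fell in both.

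Smaller shared falls were those of the condensin II gene NCAPG2 (−0.91 ± 0.062), the mitochondrial protein gene C1QBP (−0.79 ± 0.044), the myotrophin gene MTPN (−0.72 ± 0.050), the cystine transporter gene SLC7A11 (−0.67 ± 0.063) and the Wnt receptor gene FZD8 (−0.64 ± 0.099). TIMM8A, AEBP2, XPR1, EIF4G3, AIFM1 and SP1 also fell in both lines, with common changes from −0.52 to −0.26. QKI, an RNA-binding protein gene, changed by −1.19 ± 0.21, the line effects being −0.66 and −1.70 (adjusted p of the difference = 2.09e-10). RHOA completed the 19 at −0.14 ± 0.043, but its call ended without any 1 of the 8 libraries (adjusted p from 0.0506 to 0.124). Some reported targets moved in 1 line: KLF5, a transcription factor gene, changed by −1.19 ± 0.094 in LNCaP and stood at 0.10 ± 0.053 in PC3, and PDK1 likewise at −0.53 ± 0.055 and 0.10 ± 0.052. IGF1R, the growth factor receptor gene, had opposite calls, −0.36 ± 0.10 and 0.53 ± 0.079. JAK2, ATG7 and PDPK1 were lower and ATG14 higher in the common fit without passing in both lines. Those 4 calls ended when single libraries were left out, for JAK2, ATG7 and ATG14 any of the 4 PC3 libraries (adjusted p from 0.0534 to 0.106), and for PDPK1 any library but the first PC3 control (0.0535 to 0.109). GPHN was lower in the contrasts of both lines (edgeR adjusted p = 0.0175 in LNCaP and 0.0360 in PC3) but did not pass in the common fit (0.0619). DIP2C, ERBB2, PTPN4 and CBX7 did not pass in the common fit either. In PC3 the call of XPR1 ended without the first control (adjusted p = 0.147) or the second miR-375 library (0.203), and with total counts AIFM1, SP1, XPR1 and RHOA no longer fell in both lines. The list and its effects were known from earlier work on these libraries, so its direction is no independent evidence.

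**Figure D3:**
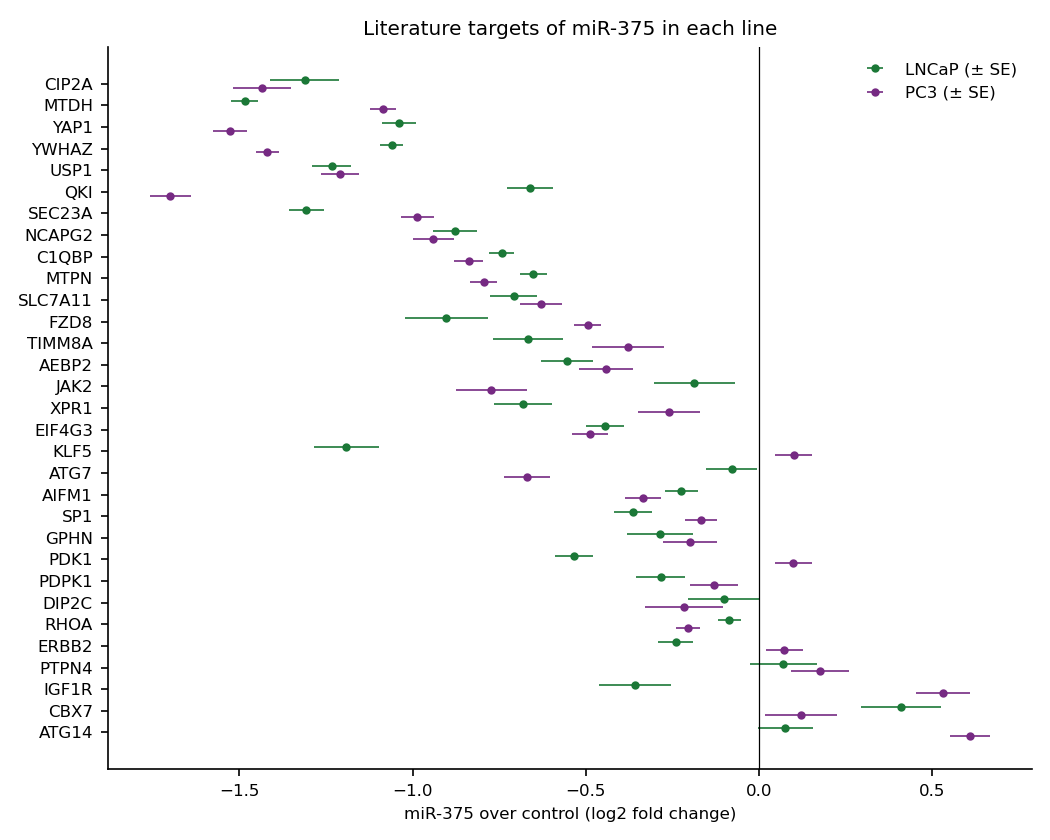
Log2 fold change of miR-375 over control (x axis, ± SE) in LNCaP (green) and PC3 (purple) for 31 of the 32 literature targets, ordered by the common effect. The genes at the top, from CIP2A to SLC7A11, lie below 0 in both lines, while KLF5, PDK1 and IGF1R are among those with the lines on opposite sides.

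Seed matches were counted in the 3′ UTR of 1 protein-coding transcript per gene (GENCODE 29, GRCh38), which 9569 of the 9976 genes had. Genes with a GAACAAA match in the 3′ UTR were lower with miR-375 than genes without, and more so where the 3′ UTR was short. The median common change was −0.034 for 8137 genes without a match, −0.15 for 1142 with 1 match, −0.21 for 219 with 2 and −0.10 for 71 with 3 or more, and the shares that fell in both lines were 19.3%, 32.0%, 41.6% and 33.8%. The median 3′ UTR length was 977 bases without a match and 2756 with 1, so genes were split into 3 equal parts by length. In the shortest part the medians were −0.35 with a match (94 genes, 53.2% lower in both lines) and −0.057 without (20.5%). In the middle part they were −0.21 (325 genes, 40.9%) and −0.026 (19.4%), and in the longest −0.11 (1013 genes, 29.4%) and −0.011 (17.6%). These are descriptions of sets of genes, with no test.

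**Figure D4:**
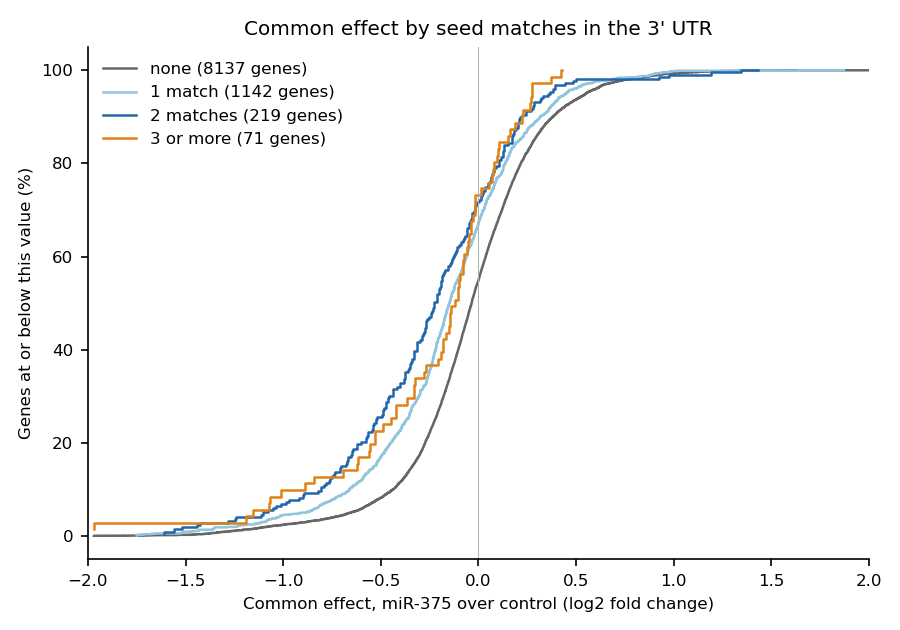
Share of genes (y axis, percent) whose common log2 change lies at or below the value on the x axis, by the number of GAACAAA matches in the 3′ UTR. The curves for 1 and 2 matches lie to the left of the curve for none, with medians of −0.15 and −0.21 against −0.034.

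Sites of genes that fell 2-fold or more in each line, or that are reported targets, are shown with their surroundings because they are the sequences the seed count rests on (DNA letters, transcript strand, site in capitals; GRCh38).
MAT2B 3′ UTR, chr5:163518427-163518433, plus strand: cactttttaaaGAACAAAggaaatagtttt
EME1 3′ UTR, chr17:50381226-50381232, plus strand: aaaacacaaagGAACAAAgacagtccactc
POC1B 3′ UTR, chr12:89421103-89421109, minus strand: gcccaataaatGAACAAAtgtacatacact
CDCA7L 3′ UTR, chr7:21901846-21901852, minus strand: aaatttacactGAACAAAgtgcaattaact
ACSL3 3′ UTR, chr2:222942141-222942147, plus strand: aaatcattgttGAACAAAagatttgttgct
WBP1L 3′ UTR, chr10:102815165-102815172, plus strand: ttactgtttacCGAACAAAtgtctgactgt
YAP1 3′ UTR, chr11:102230048-102230054, plus strand: cagaaaaagatGAACAAAcgtccagcaaga
USP1 3′ UTR, chr1:62451200-62451206, plus strand: ttagcttctggGAACAAActtgtatcggtt
SEC23A 3′ UTR, chr14:39033045-39033051, minus strand: gagagcaataaGAACAAAtttattttgctt
All but that of WBP1L, an 8mer, are 7mer-A1 sites. POC1B has 4 such sites in 1435 bases of 3′ UTR, and ACSL3, YAP1, CDCA7L and WBP1L have 2 each. Of the 12 largest shared falls 6 held a GAACAAA match (POC1B, TYMS, MAT2B, EME1, CBX3 and CDCA7L), against 1432 of the 9569 genes (15.0%), and 2 of the 10 among the 12 largest shared rises that had a 3′ UTR. Among all genes that fell in both lines 23.4% held a match, and among those that rose 10.0%. Among the 12 falls, CDC6, MCM5, DTL, EXO1 and ANLN held none.

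By the best site, the median common change was −0.22 for 36 genes with an 8mer, −0.069 for 57 with a 7mer-m8 (ranked above a 7mer-A1, which some of them also hold), −0.15 for 1385 with a 7mer-A1 and −0.034 for 8091 with none. The first 2 classes thus hold few genes. In the same order 27.8%, 21.1%, 33.9% and 19.3% of the genes fell in both lines, so the 7mer-m8 class lay near the genes with no site. Genes on the 4 cell cycle and repair lists had medians close to each other with a match (11 genes, −1.19) and without (147 genes, −1.11), while outside those lists the medians were −0.15 (1421 genes) and −0.030 (7990 genes). Of the 165 genes that fell 2-fold or more in each line, 68 are on those lists, 39 held a match, 6 are counted in both, and 64 in neither. The lists do not name every cell cycle gene, and the 64 include DTL. With the longest 3′ UTR of each gene the medians were −0.14 with a match (1629 genes) and −0.034 without. With library sizes from total counts they were −0.056 and 0.065, so the gap between the 2 sets remained while the sign of the second turned. Among the reported targets 14 of 25 with a match fell in both lines, and 5 of 7 without.

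Genes with a match in the large shared falls had varied roles. ACSL3, an acyl-CoA synthetase gene, stood at 224 and 225 CPM in the LNCaP controls and 87.0 and 79.3 CPM with miR-375. In PC3 ACSL3 stood at 241 and 247 CPM in the controls and 92.8 and 89.8 CPM with miR-375. The falls of ACSL3 did not pass the test of a difference between the lines (2.7-fold and 2.67-fold, common change −1.43 ± 0.047, adjusted p of the difference = 0.901). WBP1L, a transmembrane adaptor gene, fell from 52.7 ± 0.876 to 19.5 ± 0.044 CPM in LNCaP and from 82.8 ± 1.19 to 24.0 ± 1.14 CPM in PC3. PUDP, a pseudouridine phosphatase gene with 1 match, fell from 21.7 ± 0.365 to 7.68 ± 0.329 CPM in LNCaP and from 26.6 ± 2.16 to 6.64 ± 1.70 CPM in PC3. SLC35B4, a nucleotide sugar transporter gene with 2 matches, changed by −1.45 and −1.58, and NEMP1, a nuclear envelope gene, by −1.44 and −1.58 in LNCaP and PC3. ACSL3 aside, these genes were named after their values were seen.

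The 12 largest shared rises were those of TMEM229B, CAMK2N1, PPP1R3B, FBXO2, ZNF702P, IFI6, CDH7, SMIM10L2A, VASH2, PTPRR, VSTM2L and SEMA6B. CAMK2N1, an inhibitor of calmodulin-dependent kinase II, stood at 318 and 289.7 CPM in the LNCaP controls and 801 and 777 CPM with miR-375. In PC3 it was near the 5 CPM limit, at 4.54 and 6.02 CPM in the controls and 14.5 and 14.7 CPM with miR-375. CAMK2N1 was higher by a fold of 2.6 and 2.77 (common change 1.42 ± 0.076, adjusted p = 1.60e-06). PPP1R3B, a glycogen-targeting subunit of protein phosphatase 1, stood at 13.3 and 12.4 CPM in the LNCaP controls and 31.4 and 32.3 CPM with miR-375. In PC3 PPP1R3B stood at 14.8 and 14.8 CPM in the controls and 40.5 and 37.3 CPM with miR-375. The folds of PPP1R3B were 2.48 and 2.63. FBXO2, an F-box protein that recognises glycoproteins, rose by 1.26 ± 0.091, with exons of FBXO44 on the other strand. TMEM229B, a transmembrane protein gene, ranked first, rising from 3.09 ± 0.242 to 9.30 ± 1.03 CPM in LNCaP and from 3.63 ± 0.368 to 16 ± 0.210 CPM in PC3. VASH2, a tubulin carboxypeptidase gene, rose by 1.33 ± 0.14, and the semaphorin gene SEMA6B by 1.15 ± 0.10. For 7 of the 12, among them TMEM229B, CDH7, ZNF702P (a pseudogene) and SMIM10L2A (which has a near-identical copy), a group mean lay under 5 CPM, so these entered in at least 1 line through their miR-375 level.

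Replication-dependent histone genes had the highest median of the lists. Their messengers normally end in a stem-loop bound by SLBP and lack a poly(A) tail, and the libraries were made from poly(A) RNA. The counts of these genes therefore need not follow the total amount of their messengers. All 8 that reached the level rose in both lines (median 1.15), against 11.6% of the 9976 genes, and 6 of the 8 had 5 CPM in all 4 groups. Over the 14 tested at any level, 8 rose and 1 fell in both lines. H2BC21 stood at 42.1 and 44.4 CPM in the LNCaP controls and 82.5 and 81.7 CPM with miR-375. In PC3 H2BC21 stood at 11.9 and 12.6 CPM in the controls and 62.0 and 63.0 CPM with miR-375, a rise of 5.12-fold against 1.90-fold in LNCaP (adjusted p of the difference = 8.67e-15). H4C8 rose by 0.82 ± 0.090 in LNCaP and 1.52 ± 0.083 in PC3. All 8 had the larger log2 change in PC3. SLBP itself fell, with log2 changes of −0.90 and −0.59. Histone genes are near-identical copies, so reads can be split between them.

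Interferon-stimulated genes rose in part. Of 30, 14 rose and 1 fell in both lines, against 11.6% and 20.9% of the 9976 genes, with a median common change of 0.50. IFI6, an antiviral membrane protein gene, stood at 8.95 and 8.94 CPM in the LNCaP controls and 19.7 and 21.1 CPM with miR-375. In PC3 IFI6 stood at 306 and 319.5 CPM in the controls and 1291 and 1219 CPM with miR-375. IFI6 was far higher in the PC3 controls and rose by more there, 4.01-fold against 2.28-fold (adjusted p of the difference = 4.58e-10). OASL, an oligoadenylate synthetase-like gene, rose 4.63-fold in LNCaP and 2.09-fold in PC3, IFI44 3.16-fold and 2.09-fold, and IFIT1, a sensor of viral RNA caps, 2.87-fold and 1.90-fold. All 3 of these were under 5 CPM in the LNCaP controls. With 5 CPM asked of all 4 groups, 9 of 22 rose in both lines. The falling gene was TRIM25, a ubiquitin ligase of RNA sensing (−0.44 ± 0.046). ISG15 rose in PC3 (1.08) and stood at 0.12 in LNCaP. STAT2 rose in both lines by 0.23. The promoter of IFI6 is shown for the interferon-stimulated response element (GAAANNGAA), with 3 matches and 1 CCAAT box in capitals (chr1:27672143-27672442, minus strand).
IFI6: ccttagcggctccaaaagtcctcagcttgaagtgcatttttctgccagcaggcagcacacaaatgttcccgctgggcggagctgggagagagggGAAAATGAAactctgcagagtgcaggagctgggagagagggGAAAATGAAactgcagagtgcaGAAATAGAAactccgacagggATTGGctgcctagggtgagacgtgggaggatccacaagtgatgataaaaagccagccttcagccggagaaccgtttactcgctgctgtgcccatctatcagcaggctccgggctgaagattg
The element stood in 14 of 24 matched promoters of this list (58.3%) and in 7 of 11 of the antigen presentation list (63.6%), against 8.29% of all promoters and 6.0% of those of the 9976 genes. Among all genes that rose in both lines, 60 of 920 matched promoters held it (6.52%), near the share of the 9976 genes. Here N is any base, and both strands were searched.

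The list counts of this paragraph stand against 11.6% of the 9976 genes that rose and 20.9% that fell in both lines. Of 14 antigen presentation genes of MHC class I, 8 rose and 1 fell in both lines (median 0.34). TAPBP, the tapasin gene, rose by 0.58 ± 0.054 in LNCaP and 0.52 ± 0.045 in PC3, and TAP1, a peptide transporter subunit, by 0.59 ± 0.081 and 0.51 ± 0.064. HLA-B and HLA-C, whose sequences are alike enough to share reads, rose by more in PC3 (1.13 and 1.26) than in LNCaP (0.37 and 0.39). B2M, the shared light chain, rose by 0.22 and 0.95, and CANX, a chaperone, fell. Among NF-kB and inflammatory genes 6 of 15 rose in both lines and none fell. CXCL8, the interleukin-8 gene, stood at 22.6 and 22.3 CPM in the LNCaP controls and 37.5 and 38.9 CPM with miR-375. In PC3 CXCL8 stood at 305 and 302 CPM in the controls and 729 and 729 CPM with miR-375. The NF-kB feedback genes TNFAIP3 (0.37 ± 0.079), NFKBIA (0.46 ± 0.090) and ZC3H12A (0.65 ± 0.11) and the kinase gene IRAK2 (0.57 ± 0.090) also rose. Of 29 genes of autophagy and lysosomes 10 rose and 1 fell in both lines (median 0.22): the regulator TFEB rose by 0.61 and 0.61, and the protease gene CTSD by 0.37 and 0.90. The summed markers of other cell types given above also differed with miR-375, and their part in these rises was not tested.

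**Figure D5:**
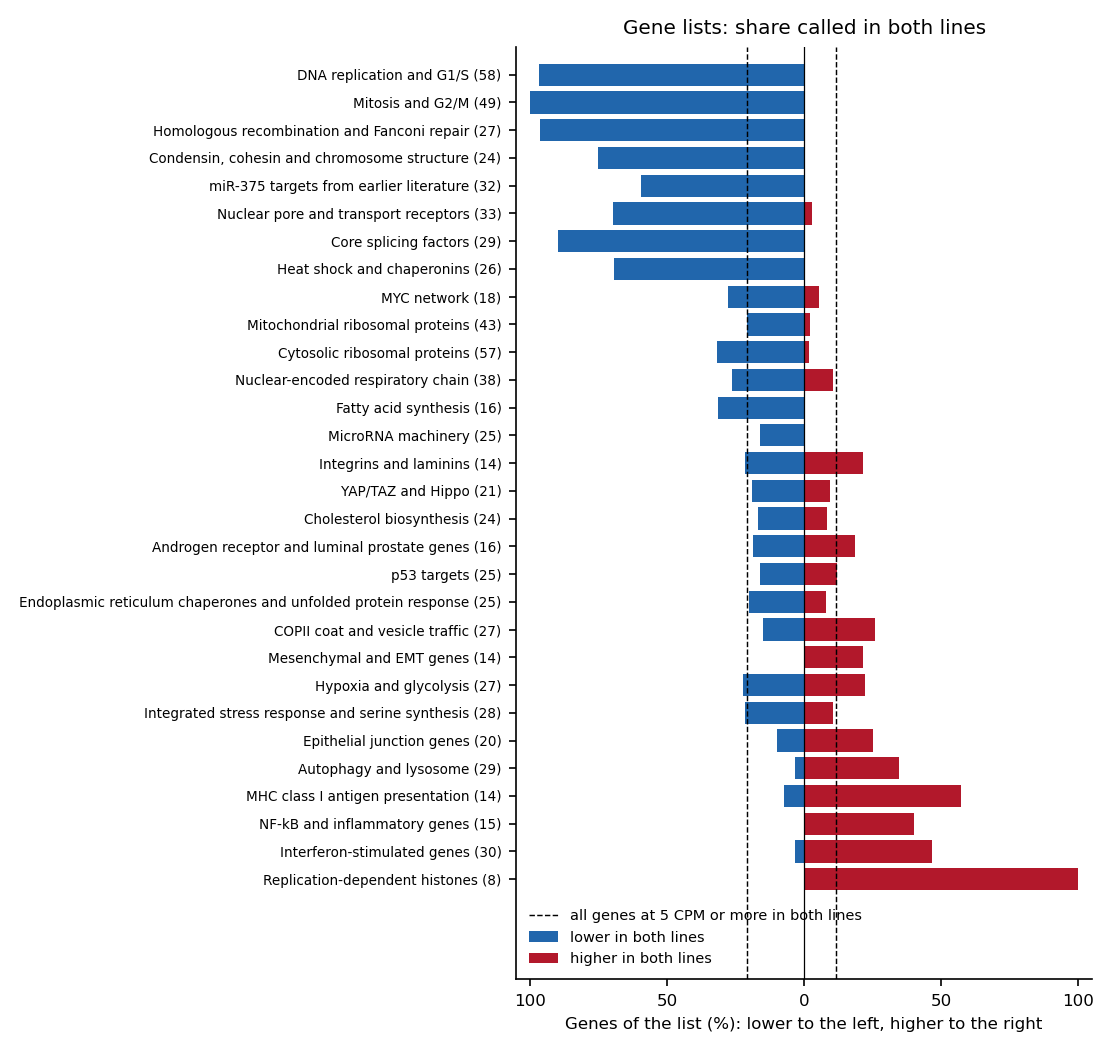
Share of each list's genes that fell (blue, to the left) or rose (red, to the right) in both lines, in percent, with the number of genes at 5 CPM or more in brackets; dashed lines mark the shares over all 9976 genes, 20.9% and 11.6%. The cell cycle and repair lists fill the left side and the histones the right, and the splicing, nuclear pore and chaperone lists also reach far to the left.

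Most genes of the splicing and nuclear transport lists fell in both lines, where 20.9% of the 9976 genes fell and 11.6% rose. Of 29 core splicing factors 26 fell in both lines and none rose (1 rose without the first LNCaP control or the second LNCaP miR-375 library), with a median of −0.33, and SRSF1 (−0.61 ± 0.051), SRSF7 (−0.61 ± 0.043), SRSF2 (−0.55 ± 0.045) and HNRNPD (−0.56 ± 0.056) led. SRSF7 stood at 309 and 309.7 CPM in the LNCaP controls and 198 and 202 CPM with miR-375. In PC3 SRSF7 stood at 116 and 116 CPM in the controls and 79.5 and 74.1 CPM with miR-375. Of 33 nuclear pore and transport receptor genes 23 fell and 1 rose in both lines (median −0.42). KPNA2, an importin alpha, was 2.00-fold lower in LNCaP and 2.05-fold lower in PC3, and the pore genes NUP54 (−1.06 ± 0.067), NDC1 (−0.85 ± 0.053) and NUP85 (−0.78 ± 0.054) fell with it, while POM121 rose by 0.32. With total counts the splicing median was −0.23 with 19 lower, and the pore median −0.32 with 23 lower.

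Chaperone genes fell in 18 of 26 cases in both lines and none rose (median −0.21). The count of falls was 11 without the first LNCaP control and 10 with total counts. For this and the ribosomal lists, the shares over the 9976 genes were 20.9% lower and 11.6% higher. HSPA9, the mitochondrial HSP70 gene, changed by −0.57 and −0.55, and HSPH1 by −0.44 and −0.44. Cytosolic ribosomal protein genes had 18 of 57 lower and 1 higher in both lines with a median of −0.090, RPL3 (−0.28 ± 0.039) and RPL7 (−0.29 ± 0.037) among the lower. That direction flipped with total counts (median 0.0088, 5 lower and 6 higher), and the count was 9 without the first LNCaP control or the second LNCaP miR-375 library and 11 without the first PC3 control or either PC3 miR-375 library. Without the first LNCaP control or either LNCaP miR-375 library 2 rose. Mitochondrial ribosomal protein genes had 9 of 43 lower and 1 higher (median −0.15), a share of lower genes near that of all 9976 genes, and 5 were lower with total counts.

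Some genes of lipid synthesis fell. Of 16 fatty acid genes 5 fell (31.2%, against 20.9% of the 9976 genes) and none rose in both lines (1 rose without the first LNCaP control or the first LNCaP miR-375 library, and 3 with total counts): ACSL3 as above, the elongase gene ELOVL6 (−1.07 ± 0.082), the acetyl-CoA synthetase gene ACSS2 (−0.70 ± 0.062), the citrate lyase gene ACLY (−0.35 ± 0.053) and the malic enzyme gene ME1 (−0.27 ± 0.059). In LNCaP the call of ME1 ended without any 1 of the 4 LNCaP libraries (adjusted p from 0.151 to 0.424). Their list median, −0.061, turned positive with total counts (0.038). ELOVL6 stood at 31.6 and 32.3 CPM in the LNCaP controls and 13.3 and 15.0 CPM with miR-375. In PC3 ELOVL6 stood at 23.7 and 25.6 CPM in the controls and 13.0 and 12.2 CPM with miR-375, and its 3′ UTR holds 3 seed matches. Of 24 cholesterol biosynthesis genes 4 fell (16.7%) and 2 rose (8.33%), both under the shares of the 9976 genes (20.9% and 11.6%). The sterol isomerase gene EBP fell most (−0.98 ± 0.10). Without any 1 of the 4 LNCaP libraries 1 or 2 fell, and with total counts 2.

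Vesicle coat genes moved both ways. SEC23A, a COPII coat subunit and reported target, stood at 187 and 190.2 CPM in the LNCaP controls and 82.3 and 70.0 CPM with miR-375. In PC3 SEC23A stood at 239 and 232 CPM in the controls and 119 and 119 CPM with miR-375. It fell with the GTPase gene SAR1A (−0.54 ± 0.047), the cargo receptor gene LMAN1 (−0.67 ± 0.12) and SEC23B (−0.21 ± 0.048). These 4 of 27 genes (14.8%) are a smaller share than the 20.9% of the 9976 genes. A further 7 rose (25.9%, against 11.6%), among them the cargo receptor gene SURF4 (0.50 ± 0.059) and SEC13 (0.27 ± 0.041). In LNCaP the call of SEC23B ended without either control or the second miR-375 library (adjusted p from 0.0759 to 0.483). With total counts 11 rose. Seed matches lay in the 3′ UTRs of SEC23A, SAR1A and LMAN1. In the Hippo list YAP1, WWTR1 (the paralogue of YAP1, −1.87 and −0.69), MOB1A (−0.75 ± 0.053) and CRIM1 (−0.86 ± 0.17) fell and LATS2 and ARHGEF17 rose among 21, near the shares of all genes. WWTR1 and CRIM1 were under 5 CPM in LNCaP with miR-375, so 2 of 19 fell when 5 CPM was asked of all groups, and without the first LNCaP control 1 rose, ARHGEF17 no longer passing in LNCaP (adjusted p = 0.0889). Of 14 integrin and laminin genes 3 fell and 3 rose, 21.4% each, the share of falls being near that of all genes. With total counts 1 fell. ITGA6 fell (−0.59 and −1.50), and ITGA1 (1.19 ± 0.088), ITGA5 (0.55 ± 0.084) and ITGAV (0.40 ± 0.069) rose. Mesenchymal genes had 3 of 14 higher (21.4%) and none lower, and 5 higher with total counts. Of the 14, 4 were up in LNCaP and down in PC3 and 1 the reverse. Over the 30 mesenchymal genes tested at any level, 4 rose and 3 fell in both lines.

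The counts of the remaining lists stand against 20.9% lower and 11.6% higher over the 9976 genes. Hypoxia and glycolysis genes had 6 of 27 lower and 6 higher in both lines, with the collagen hydroxylase gene P4HA1 (0.60 ± 0.062) and the aldolase gene ALDOC (0.69 ± 0.099) among the higher, and 2 lower and 14 higher with total counts. Of 38 respiratory chain genes 10 fell and 4 rose, NDUFA4 changing by −0.51 ± 0.041. Integrated stress response genes had 6 of 28 lower and 3 higher, with SLC7A11 and the tRNA synthetase gene WARS1 (−0.45 ± 0.048) lower. Genes of the unfolded protein response had 5 of 25 lower and 2 higher, with ERO1A, an oxidase of disulfide formation, higher (0.75 ± 0.11) and PDIA4 lower (−0.63 ± 0.086). Epithelial junction genes had 2 of 20 lower and 5 higher, the transcription factor gene ELF3 rising by 0.64 ± 0.054 and the tight junction gene TJP1 falling (−0.50 ± 0.053). MicroRNA machinery genes had 4 of 25 lower and none higher, with TNRC6A, an argonaute partner, at −0.46 ± 0.050. The p53 target genes had 4 of 25 lower and 3 higher, TP53I3 rising (1.05 ± 0.13). In the MYC network 5 of 18 fell and 1 rose, and among androgen receptor and luminal genes 3 of 16 fell and 3 rose. With total counts, higher genes numbered 7 in the unfolded protein response, 6 in the stress response, 6 among p53 targets and 2 in the microRNA machinery (also 2 when the 9976 genes were fitted alone), and lower genes 5 in the respiratory chain, 2 in the MYC network and 1 each among p53 targets and epithelial genes. Counts of 6 or fewer moved by more than 1.5 times without single libraries: 3 fell in the MYC network without the first LNCaP control or either LNCaP miR-375 library, 1 or 2 p53 targets fell without either LNCaP control, the second LNCaP miR-375 library, the first PC3 control or the second PC3 miR-375 library, and 1 androgen receptor gene rose without the first PC3 control or either PC3 miR-375 library. Likewise 1 stress response gene rose without the second PC3 control or the first PC3 miR-375 library, 1 epithelial gene fell without the second LNCaP miR-375 library, 1 microRNA machinery gene rose without the second LNCaP control, and 2 respiratory chain genes rose without any library but the first PC3 control. No mitochondrial ribosomal gene rose without the second LNCaP control, either PC3 control or the second PC3 miR-375 library.

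Opposite effects were less frequent than shared ones. Each line's own contrast passed for 3991 of the 9976 genes, and 3275 of these (82.1%) moved in the same direction. The other 716 (7.18% of the 9976, against 4.30% of all tested genes) had opposite calls, 277 up in LNCaP and down in PC3 and 439 the reverse. MYC, the proto-oncogene, stood at 355 and 344 CPM in the LNCaP controls and 187 and 183 CPM with miR-375. In PC3 MYC stood at 86.6 and 94.8 CPM in the controls and 164 and 154 CPM with miR-375. Its lines were thus closer to each other with miR-375 than without, and the common change was −0.059 ± 0.33 (adjusted p = 0.920). TMEM45B, a transmembrane protein gene, changed by −0.75 ± 0.058 in LNCaP and 2.52 ± 0.058 in PC3, S100P, a calcium-binding protein gene, by −1.46 ± 0.18 and 2.19 ± 0.19, and PI3, the elafin gene, by −1.33 ± 0.11 and 0.90 ± 0.035. In the other direction LAMB3, a laminin chain, changed by 0.95 ± 0.11 and −0.97 ± 0.036, KITLG, the KIT ligand gene, by 1.08 ± 0.14 and −0.87 ± 0.087, AOX1, the aldehyde oxidase gene, by 1.15 ± 0.13 and −1.08 ± 0.064, and NR3C2, the mineralocorticoid receptor gene, by 0.84 ± 0.15 and −0.86 ± 0.14.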

How the data were processed

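Poly(A) RNA of 8 libraries was sequenced, and the authors deposited 1 table of counts per gene and library. Per the submitters' processing notes, fastp, STAR 2.7.1a, featureCounts and DESeq2 were used with hg38. Which annotation was counted, and whether by strand, the sources used here leave unstated. Of 60625 gene lines, 3 broken ones were left out, and 81 lines with a repeated or missing symbol were called by ID. Of counts from 1 to 20, 68.1% to 70.3% were even in each library, so small counts carry fewer independent units than their size; counts halved and rounded up were tried as an alternative.

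The deposited counts were tested with edgeR 4.0.16 (R 4.3.3): quasi-likelihood fits with TMM scaling and its expression filter, which left 21066 genes. The common effect came from a model of line and miR-375 over all 8 libraries with 5 residual degrees of freedom. The effects in each line and their difference came from a 4-group model with 4. P-values were adjusted by Benjamini-Hochberg over all 21066 genes and called under 0.05. A standard error is the log2 change divided by the square root of its F statistic. Genes named as the largest were the 12 rises and 12 falls with the largest smaller-of-both-lines change among those whose libraries did not overlap, and likewise 4 opposite calls of each kind and up to 4 genes per list, with all reported targets and the exceptions to a list's direction; some others were named after their values were seen. The members and the gene lists were chosen with earlier results of these data known. The common fit was tested on simulated data. The deposited counts were also analysed with limma 3.58.1 and DESeq2 1.42.0, with other scalings and filters, and without each library. Sequences came from RefSeq (GRCh38.p14) and GENCODE 29. A few items and the results that need them are not reported here.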

Additional observations from a re-analysis of the deposited data

Results flagged for a closer look

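Of the genes named above, these had an effect of miR-375 that differed between LNCaP and PC3 by the test of the difference itself (edgeR, adjusted over all tested genes). Each value in brackets is the LNCaP log2 change minus the PC3 log2 change, and line and serum cannot be told apart in it. Among genes that fell in both lines, the fall was larger in LNCaP for WWTR1 (−1.18), CRIM1 (−0.94), LMAN1 (−0.64), PDIA4 (−0.48), XPR1 (−0.42), FZD8 (−0.41), MTDH (−0.40), SEC23A (−0.32), SLBP (−0.31), CBX3 (−0.27), CDCA5 (−0.24) and SP1 (−0.20). The same held for ACLY (−0.20), SRSF1 (−0.17), SAR1A (−0.16) and CANX (−0.13). The fall was larger in PC3 for RPL3 (0.12), HNRNPD (0.21), ME1 (0.22), NCAPH (0.28), WBP1L (0.35), YWHAZ (0.36), POC1B (0.43), FANCI (0.44), KIF23 (0.44), YAP1 (0.49), PUDP (0.51) and ANLN (0.66). The same held for ITGA6 (0.91) and QKI (1.04).

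Among genes that rose in both lines, the rise was larger in PC3 for H2BC21 (−1.43), HLA-C (−0.87), ARHGEF17 (−0.82), IFI6 (−0.81), HLA-B (−0.76), B2M (−0.73), H4C8 (−0.70), ZC3H12A (−0.56), ERO1A (−0.54), CTSD (−0.53), ALDOC (−0.53) and CXCL8 (−0.50). The same held for NFKBIA (−0.49), ITGA5 (−0.46), SURF4 (−0.28) and ITGAV (−0.28). The rise was larger in LNCaP for IFI44 (0.60), IFIT1 (0.60), TP53I3 (0.63) and OASL (1.15). Among genes not called in both lines in 1 direction, the change was lower in LNCaP for S100P (−3.65), TMEM45B (−3.28), PI3 (−2.23), MYC (−1.72), KLF5 (−1.29), ISG15 (−0.96), CCNE1 (−0.92), IGF1R (−0.89), PDK1 (−0.63), ATG14 (−0.53), ESCO1 (−0.50) and ERBB2 (−0.31). The same held for PDS5A (−0.17). The change was higher in LNCaP for STAG2 (0.18), JAK2 (0.59), ATG7 (0.59), NR3C2 (1.70), LAMB3 (1.92), KITLG (1.95) and AOX1 (2.23).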

How the results depend on the processing

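The counts of 1607 higher and 2626 lower genes in the common fit were 2640 and 1730 with total counts, 2437 higher when the 9976 genes were fitted alone, 2860 and 3946 when the 4-group contrasts were averaged, which takes the line difference out of the residual, and 523 and 1064 when tested against a fold of 1.2. The 1153 rises and 2087 falls in both lines were 2001 and 1364 with total counts, 1751 rises fitted alone, and 350 and 843 against a fold of 1.2. The line difference among commonly called genes (1675) was called for 3276 with averaged contrasts and 258 against that fold, where 101 opposite calls were left of 716. Of the interferon-stimulated genes 8 rose in both lines against that fold, and 9 with a floor of 10 CPM or with 5 CPM in all 4 groups. Total counts moved the median common effect up by 0.099 on the log2 scale, which favours keeping rises. Every gene that rose with TMM also did so with total counts, in the common fit and in both lines. Of the falls, 1730 of 2626 in the common fit and 1364 of 2087 in both lines were kept. Leaving out 1 library gave 1229 to 1524 common rises, 2115 to 2261 common falls, 1002 to 1097 rises and 1697 to 1909 falls in both lines, and 1075 to 1403 line differences, lowest without the second PC3 miR-375 library. ERBB2, not called, turned from −0.084 to 0.015 with total counts (adjusted p = 0.894). The cause of these moves was not tested.

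The labels do not say whether the replicate numbers pair the libraries. Deviations of same-numbered control and miR-375 libraries correlated at −0.024 in LNCaP and 0.012 in PC3. Pairs of groups from different lines, which do not bear on such a pairing, lay between −0.062 and 0.0063. Such values from 2 libraries per group cannot exclude a pairing. With a replicate block within line the common fit called 906 higher and 1738 lower genes and 909 line differences, and 886 rises and 1723 falls in both lines, of which 883 and 1719 were among those above. With 2 libraries per group, 5 and 4 residual degrees of freedom limit what can be called, and no gene's 95% interval of the common effect lay within 0.1 log2 of 0.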
